A study of Homo sapiens with 18 samples.

Results

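The IKK kinases and the proteins that activate them were examined as 10 genes of the 60504 in the deposited table. They were taken by symbol: IKBKB, CHUK, IKBKG, TBK1, IKBKE, MAP3K7, MAP3K14, TAB2, TRAF2 and TNFRSF1A. Each symbol matched 1 Ensembl identifier, and all 10 passed the filter on low values described below, as did 14936 genes in all. Levels came from 18 libraries of A375, an established human melanoma line with an activating BRAF mutation, in 6 groups of 3. Treated cells were given IMD-0354, which is known as an IKKβ inhibitor, at 0.32, 0.63 or 1.25 µM for 24 h, beside untreated cells at 24 h. A second pair of groups received 0.63 µM for 48 h or was left untreated for 48 h. All groups are cells of the same line without any genetic change made for the study, and no vehicle is named for the cells left untreated.

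IKK is a complex of the kinases IKKα (CHUK) and IKKβ (IKBKB) with the scaffold NEMO (IKBKG). It phosphorylates the inhibitors that hold NF-κB in the cytoplasm, which marks them for degradation and frees NF-κB to enter the nucleus. Signals reach IKK from receptors such as TNF receptor 1 (TNFRSF1A) through the adaptor TRAF2 and the kinase TAK1 (MAP3K7) with its adaptor TAB2. In the alternative pathway NIK (MAP3K14) activates IKKα alone, while TBK1 and IKKε (IKBKE), the IKK-related kinases, act mainly on interferon regulatory factors. IMD-0354 is aimed at the activity of the IKKβ protein, whereas the libraries measured RNA, so they show the abundance of the transcripts and not kinase activity.

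Values are TPM, a transcript level scaled by length and set by the authors to a fixed total in each library, so sequencing depth and the precision it allows are unknown. Each library had 14647 to 17029 genes above 0. The mean correlation of a library to the others of its group ran from 0.907 to 0.953 across genes, which are not independent replicates, and was lowest for untreated 24 h replicates 2 (0.907) and 3 (0.920). Whether a group's libraries are separate cultures is not stated, so p-values rest on a spread between samples that may be technical. Differences are on the log2(TPM + 1) scale, which understates changes of low genes, with the standard error (SE) or 95% interval of a limma fit. Adjusted p is the two-sided Benjamini-Hochberg value over all 14936 genes, and a gene passed when it was under 0.05. Fewer cells that express a gene and less RNA per cell cannot be told apart in such samples. The line's label was checked with marker genes. SOX10 (8.29 to 34.7 TPM), MITF (2.87 to 16.8 TPM) and AXL (37.1 to 144 TPM) were present in all libraries. The other 6 of the 8 melanoma and melanocyte markers were absent or low: TYR was listed at 0 in all 18 libraries, PMEL, DCT and S100A1 in 15 each, S100B in 10 and MLANA in 9, and none of them exceeded 2.43 TPM. The summed leukocyte, endothelial and fibroblast markers never exceeded 0.52 TPM and the epithelial ones 1.6 TPM.

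In untreated cells at 24 h the members were genes of middle to low abundance. TNFRSF1A stood highest at 18.4 ± 4.31 TPM (mean ± SD, n = 3 for every group here), followed by TBK1 at 16.0 ± 1.01 TPM, IKBKG at 15.4 ± 4.79 TPM and MAP3K7 at 13.7 ± 4.16 TPM. IKBKB stood at 9.75 ± 6.11 TPM, TAB2 at 7.74 ± 0.826 TPM and CHUK at 7.48 ± 2.57 TPM. IKBKE, at 1.92, 2.91 and 4.09 TPM, was the first member set apart from its neighbour above: its libraries did not overlap those of CHUK, and the difference in means exceeded the larger SD. No other pair of neighbours in this order differed by more than the larger of their SDs, and their ranges overlapped. MAP3K14 had 0.29, 3.34 and 2.95 TPM and TRAF2 had 1.29, 1.19 and 1.35 TPM. TPM is divided by transcript length, but a read from a 3' end library marks a transcript's end whether the transcript is long or short, so the order between genes also carries the length of their transcripts. Over all 18 libraries the mean of TNFRSF1A lay above 69.6% of tested genes, that of IKBKB above 57.3% and that of TRAF2 above 17.8%.

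**Figure D1:**
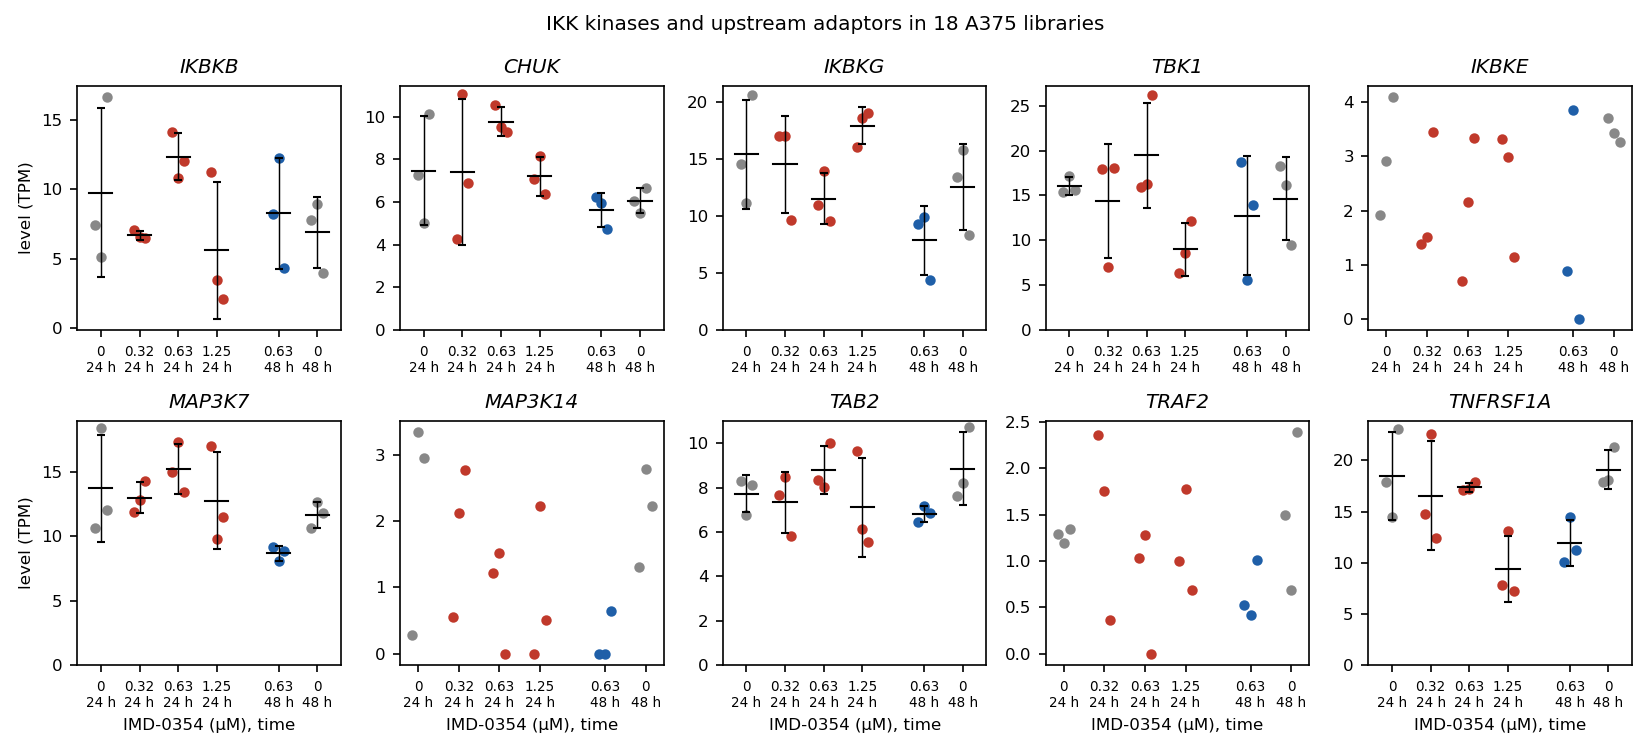
Level in TPM (linear axes, a scale per gene) of the 10 genes in each of 18 libraries, by dose of IMD-0354 and time; red points are treated for 24 h, blue points treated for 48 h and grey points untreated, with means and SDs (n = 3) as bars for genes above 0 in every library. TNFRSF1A sits at 7.24 to 13.1 TPM at 1.25 µM, below all 3 untreated libraries of that time, while most other groups overlap.

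TNFRSF1A, the gene for TNF receptor 1, was the 1 member that passed at 1.25 µM for 24 h. Its identifier is ENSG00000067182, and it lies on the minus strand of chromosome 12 from 6328757 to 6342114 in GENCODE release 29, a protein-coding gene that overlaps no other gene there. It stood at 7.82, 13.1 and 7.24 TPM in cells given 1.25 µM, against 17.9, 14.5 and 23.0 TPM in untreated cells at 24 h. The 3 treated libraries all lay below the 3 untreated ones. TNFRSF1A fell by 0.93 on the log2 scale (SE 0.253, adjusted p = 0.0269), with means of 9.37 ± 3.21 TPM at 1.25 µM and 18.4 ± 4.31 TPM untreated. Of the 10 members 1 fell and 9 did not pass, where 11.3% of all tested genes passed in this comparison and 6.36% fell. The call was lost when any of 4 of the 6 compared libraries was left out. Adjusted p was then 0.0585 and 0.089 for untreated replicates 1 and 3, and 0.0861 and 0.111 for replicates 1 and 3 at 1.25 µM. It was also lost with both less correlated untreated libraries left out (0.183) and in a fit of the compared groups alone (0.136). The difference was negative in each of the 18 alternatives, from -1.17 to -0.71.

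At the lower doses for 24 h TNFRSF1A did not pass. It had 14.7, 22.5 and 12.4 TPM at 0.32 µM and 17.1, 17.2 and 17.9 TPM at 0.63 µM, and both groups overlapped the untreated libraries. The interval of the difference from untreated cells was -0.70 to 0.37 at 0.32 µM and -0.59 to 0.48 at 0.63 µM. Between 1.25 and 0.63 µM the libraries did not overlap, with a difference of -0.87 (SE 0.253, adjusted p = 0.0996) that missed the threshold. At 48 h the gene had 10.1, 14.5 and 11.2 TPM at 0.63 µM, against 17.9, 18.1 and 21.4 TPM in untreated cells. These groups too did not overlap, with all treated libraries lower, and the difference of -0.65 (SE 0.253, adjusted p = 0.143) did not pass. The effect of 0.63 µM at 48 h minus that at 24 h was -0.59 (interval -1.35 to 0.17, adjusted p = 0.545), so a difference between the times was not shown.

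**Figure D2:**
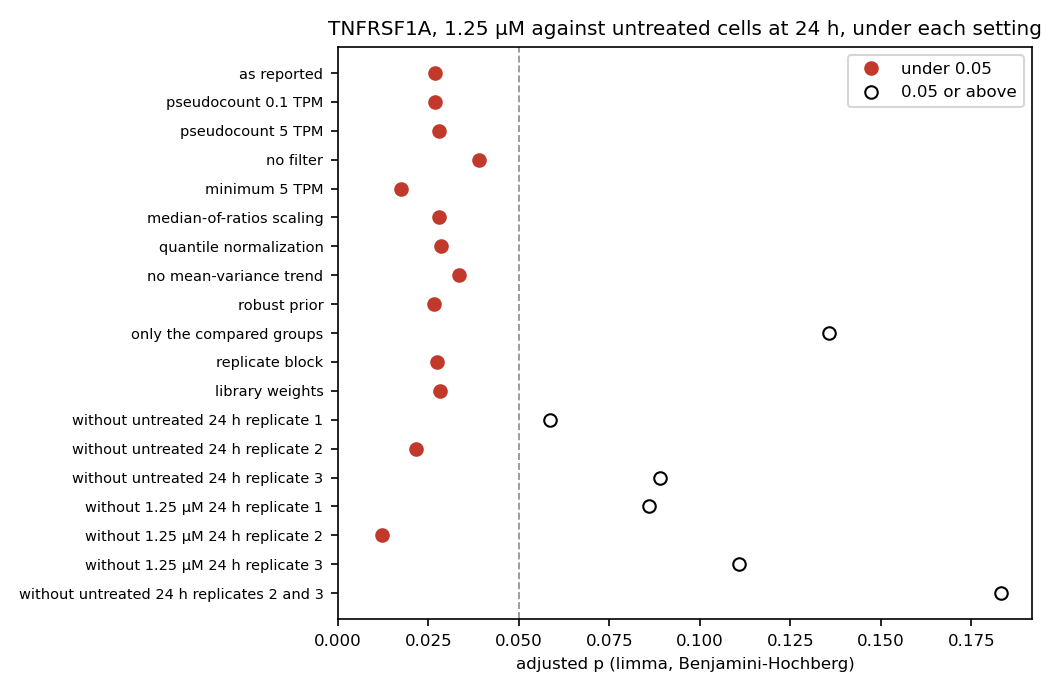
Adjusted p for TNFRSF1A at 1.25 µM against untreated cells at 24 h (x axis, linear; dashed line at 0.05) in the fit as reported and in each of 18 alternatives. Values under 0.05 are filled; the 6 open points lie between 0.0585 and 0.183.

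The genes whose pattern was most like that of TNFRSF1A over the 18 libraries were LOXL2, HMG20B and TIMP3, with Pearson's r of 0.91, 0.89 and 0.87 for log2(TPM + 1) among 7629 candidates. The libraries share their groups, so this likeness is a description. LOXL2, a lysyl oxidase that crosslinks matrix, differed by -0.95 at 1.25 µM. HMG20B, an HMG-box chromatin protein, differed by -1.78 and TIMP3, an inhibitor of matrix metalloproteinases, by -1.42. These genes were picked for likeness to TNFRSF1A over the same libraries, and TNFRSF1A fell at this dose. Their differences are therefore not independent of the choice, and no p-value is given for them. The 4 markers of dedifferentiated melanoma (AXL, NGFR, EGFR and SOX9) summed to 60.2 to 111 TPM in untreated cells at 24 h and 105.4 to 111.8 TPM at 0.32 µM. They summed to 147.7 to 188.6 TPM at 0.63 µM and 146.6 to 157.9 TPM at 1.25 µM. AXL makes up most of this sum: its median over the libraries was 91.0 TPM, against 9.7, 10.8 and 13.8 TPM for NGFR, EGFR and SOX9. The 8 markers of melanoma and melanocytes summed to 36.1 to 40.6 TPM at 1.25 µM, against 21.8 to 56.3 TPM untreated. Nearly all of it is MITF and SOX10 (medians 12.9 and 17.4 TPM, the rest at most 0.065 TPM). At 48 h the melanocyte markers summed to 16.0 to 19.7 TPM at 0.63 µM, against 31.5 to 36.0 TPM untreated. The dedifferentiation markers then summed to 134.7 to 149.8 TPM at 0.63 µM, against 107.7 to 115.3 TPM untreated. The sums thus describe 1 or 2 genes more than the sets. The part of either set in the values of TNFRSF1A and the other members was not tested.

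Of the subunits of IKK itself none passed in any comparison with untreated cells. IKBKB, the catalytic subunit at which IMD-0354 is aimed, had 11.3, 3.44 and 2.05 TPM at 1.25 µM, against 7.42, 5.14 and 16.7 TPM in untreated cells at 24 h. Replicate 1 of the treated group lay inside the untreated range and the others below it, and the difference of -0.82 had an interval of -1.83 to 0.19 (adjusted p = 0.303). At 0.63 µM IKBKB had 14.2, 10.8 and 12.1 TPM at 24 h, all above the 3 libraries at 0.32 µM (7.04, 6.52 and 6.47 TPM); that step of 0.79 did not pass (adjusted p = 0.493), and 11.0% of all tested genes were higher without overlap in it. At 48 h it had 8.19, 12.3 and 4.28 TPM at 0.63 µM, against 7.76, 8.93 and 3.97 TPM untreated, and the groups overlapped. The 18 libraries of IKBKB ran from 2.05 to 16.7 TPM, and its SE of 0.479 was close to that of IKBKE, a gene of much lower level (0.495).

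CHUK, which encodes the other catalytic subunit, varied less. It had 7.10, 8.17 and 6.36 TPM at 1.25 µM, against 7.28, 5.01 and 10.1 TPM in untreated cells at 24 h. The difference was -0.01 (interval -0.60 to 0.59, adjusted p = 1), which leaves out a 2-fold change in either direction on this scale. At 0.63 µM CHUK had 10.5, 9.51 and 9.29 TPM at 24 h and a difference of 0.39 (interval -0.20 to 0.98, adjusted p = 0.507), and 6.24, 5.94 and 4.75 TPM at 48 h, against 6.05, 5.50 and 6.65 TPM untreated. CHUK shares 37 bases with its neighbour ERLIN1 on the same strand. IKBKG, whose product NEMO holds the kinases together and binds ubiquitin chains, had 16.1, 18.6 and 19.1 TPM at 1.25 µM, against 14.5, 11.1 and 20.6 TPM untreated (0.24, interval -0.43 to 0.91). At 48 h it had 9.30, 9.93 and 4.39 TPM at 0.63 µM, against 13.4, 15.8 and 8.38 TPM untreated, and the difference of -0.64 did not pass (adjusted p = 0.266). IKBKG has a near-identical pseudogene copy, IKBKGP1, that was listed at 0 in every library, so the division of reads between the copies is uncertain.

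TBK1, a kinase of innate sensing and selective autophagy, was the other member whose libraries did not overlap at 1.25 µM. It had 6.31, 8.56 and 12.2 TPM at that dose, against 15.4, 17.2 and 15.6 TPM in untreated cells at 24 h. All treated libraries were lower, but the difference of -0.81 (SE 0.406, adjusted p = 0.225) did not pass. Thus 2 of the 10 members were lower in every treated library, where 13.7% of all tested genes were. At 0.63 µM for 24 h TBK1 had 15.9, 16.3 and 26.2 TPM, and the difference between 1.25 and 0.63 µM was -1.04 (adjusted p = 0.225). Between those doses 3 members (TNFRSF1A, TBK1 and CHUK) were lower without overlap, where 11.1% of all genes were, and IKBKG was higher, where 8.94% of all genes were. At 48 h TBK1 had 18.7, 5.58 and 14.0 TPM at 0.63 µM, against 18.3, 16.1 and 9.45 TPM untreated, with overlap. IKBKE, inducible by NF-κB in other cells, had 3.32, 2.98 and 1.15 TPM at 1.25 µM, of which the first 2 lay inside the untreated range of 1.92 to 4.09 TPM and the third below it. At 48 h it had 0.89, 3.86 and 0 TPM at 0.63 µM, against 3.71, 3.42 and 3.26 TPM untreated, where 1 treated library lay above and the others below the untreated range. The difference of -1.09 (adjusted p = 0.215) passed only without 0.63 µM replicate 2 (adjusted p = 0.0389).

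**Figure D3:**
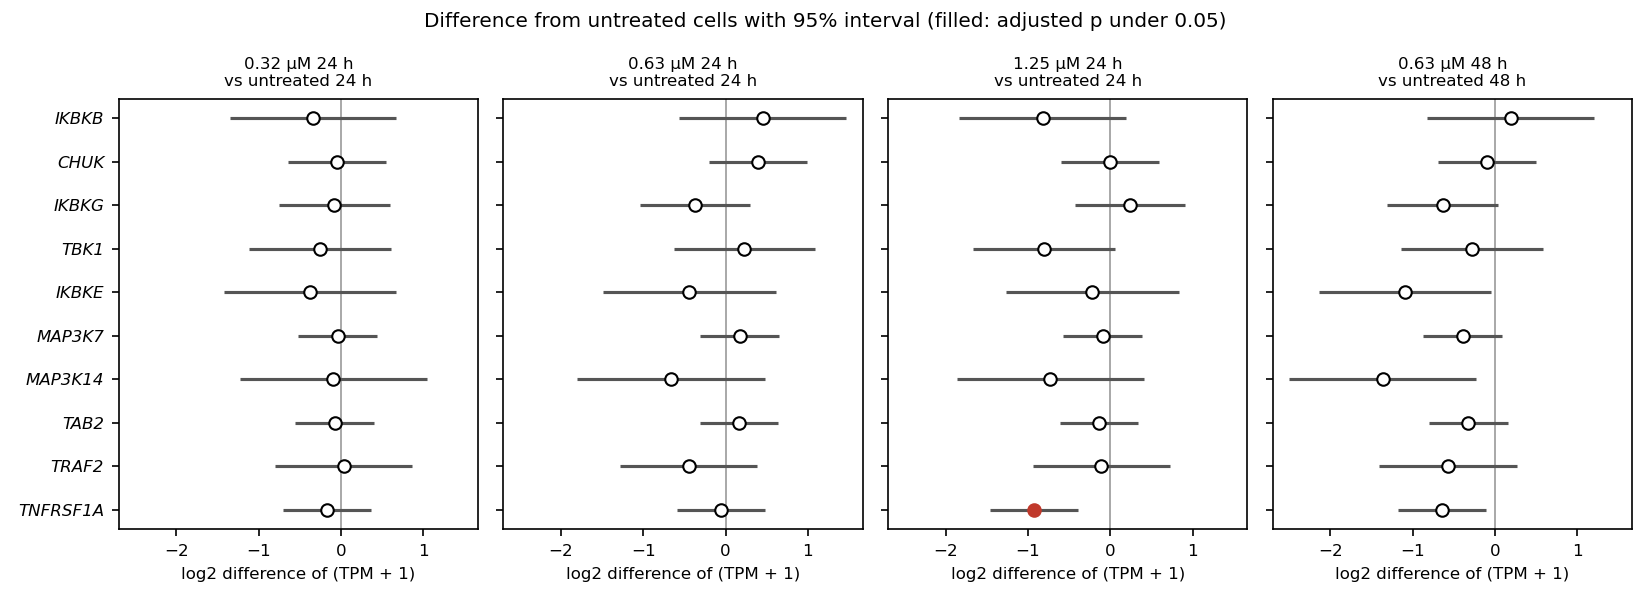
Difference in log2(TPM + 1) from untreated cells of the same time for the 10 genes in the 4 comparisons, with 95% intervals of the limma fit; the filled point is the gene that passed. The interval of TNFRSF1A at 1.25 µM runs from -1.46 to -0.39, and those of MAP3K14 and IKBKE are among the widest.

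The upstream kinases and adaptors did not pass in any comparison with untreated cells. MAP3K7, which encodes TAK1, had 17.0, 9.82 and 11.5 TPM at 1.25 µM, against 10.7, 18.5 and 12.0 TPM in untreated cells at 24 h (-0.09, interval -0.57 to 0.39). TAB2, which tethers TAK1 to ubiquitin chains, had 9.68, 6.13 and 5.54 TPM at 1.25 µM, against 8.31, 6.79 and 8.11 TPM untreated (-0.14, interval -0.61 to 0.34). Both intervals lie inside a 2-fold change, as they did for these 2 genes at 0.32 and 0.63 µM for 24 h. At 48 h the libraries of both genes lay below the untreated ones at 0.63 µM. MAP3K7 had 9.15, 8.05 and 8.83 TPM, against 10.6, 12.6 and 11.8 TPM untreated (-0.39, adjusted p = 0.354), and TAB2 had 6.44, 7.16 and 6.88 TPM, against 7.64, 8.23 and 10.7 TPM untreated (-0.32, adjusted p = 0.46).

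MAP3K14, the gene for NIK, had the lowest mean of the members at 0.63 µM for 48 h. It was listed at 0, 0 and 0.65 TPM at 0.63 µM, against 1.30, 2.78 and 2.23 TPM in untreated cells at 48 h. The groups did not overlap, and the difference did not pass (adjusted p = 0.146); its size depends on the pseudocount and settings, from -3.43 to -0.44 over the alternatives, and it passed only with the compared groups alone in the fit (adjusted p = 0.0444). At 1.25 µM for 24 h it was listed at 0, 2.22 and 0.51 TPM, against 0.29, 3.34 and 2.95 TPM untreated. The antisense gene MAP3K14-AS1 overlaps it for 5512 bases and averaged 2.44 TPM, above the 1.36 TPM of MAP3K14; whether counting used strand is not given in the sources used here. TRAF2, a ubiquitin ligase adaptor at TNF receptors, had 1.00, 1.78 and 0.69 TPM at 1.25 µM, against 1.29, 1.19 and 1.35 TPM untreated, and 0.53, 0.42 and 1.01 TPM at 0.63 µM for 48 h, against 1.50, 0.69 and 2.39 TPM untreated. Its groups overlapped in both comparisons.

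Counted together, 0 of 10 members passed in limma at 0.32 µM for 24 h, where 0.0268% of all genes did, and 0 of 10 at 0.63 µM for 24 h, where 2.18% did; 0 members had an unadjusted p under 0.05 in either, beside 6.11% and 17.9% of all genes. At 1.25 µM 1 member had an unadjusted p under 0.05, beside 25.7% of all genes. At 48 h 0 of 10 passed, where 7.63% of all genes did, and 3 had an unadjusted p under 0.05 (TNFRSF1A, MAP3K14 and IKBKE), against 21.2% of all genes. In that comparison 4 members did not overlap, all lower, where 21.3% of all genes were lower without overlap. The median difference of the members at 48 h was -0.48, and that of all genes was -0.15. Median-of-ratios scaling set the median of all genes to 0 and moved the members' median to -0.33 and TNFRSF1A to -0.45. At 0.32, 0.63 and 1.25 µM for 24 h the members' medians were -0.09, 0.05 and -0.18, and those of all genes 0, 0.00 and -0.01. No member passed in limma for 0.63 against 0.32 µM (0.556% of all genes did) or for 1.25 against 0.63 µM (1.51%). At an unadjusted p under 0.05 these gave 0 and 3 members, beside 13.9% and 15.4% of all genes. Set against its effect at 24 h, the 48 h effect of 0.63 µM differed for 0 members in limma (0.0335% of all genes) and for 0 at an unadjusted p under 0.05 (11.9%). Untreated cells at 48 h against 24 h gave 0 members that passed (0.0134% of all genes) and 0 at an unadjusted p under 0.05 (7.91%). The 3 doses at 24 h share their untreated libraries, so their values are not independent of one another.

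Around the members, 111 of the 137 distinct genes on 13 pathway lists were measured well enough to be tested. Of these, 0 passed at 0.32 µM, 3 rose and 1 fell at 0.63 µM for 24 h, 8 rose and 8 fell at 1.25 µM, and 5 rose and 8 fell at 0.63 µM for 48 h. The 8 that rose at 1.25 µM include BCL2A1, which met the filter on low values only through the libraries of that dose, so its count is no support. The shares that passed were 3.6% at 0.63 µM for 24 h, 14.4% at 1.25 µM and 11.7% at 48 h, beside 2.18%, 11.3% and 7.63% of all genes. At 1.25 µM 6.36% of all genes fell. The median difference of all genes was 0.00, -0.01 and -0.15 in these comparisons. The counts and medians of each list below are to be read beside these values.

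RBCK1, which encodes HOIL-1, a subunit of the ligase that builds linear ubiquitin chains on NEMO, rose at 3 of the 4 treatments. It stood at 111, 120 and 133 TPM in untreated cells at 24 h, at 197, 190 and 228 TPM at 0.63 µM and at 353, 342 and 341 TPM at 1.25 µM. The libraries of each of these doses lay above all untreated ones. At 48 h it stood at 390, 374 and 435 TPM at 0.63 µM, against 151, 138 and 144 TPM untreated. The rises were 0.75 (SE 0.125, adjusted p = 0.00738), 1.50 (SE 0.125, adjusted p = 2.72e-06) and 1.46 (SE 0.125, adjusted p = 4.03e-06), and the last pair held in every alternative. The rise at 0.63 µM for 24 h was lost in a fit of the compared groups alone and without untreated replicates 2 and 3 together. At 0.32 µM RBCK1 differed by -0.06 (adjusted p = 0.973). Among the 15 tested adaptors and ligases of the TNF receptor complex it was the 1 that passed at 0.63 and 1.25 µM for 24 h; at 48 h UBE2L3, a ubiquitin-conjugating enzyme, fell by 0.77 (adjusted p = 0.0119), lost under median-of-ratios scaling, quantile normalization and without untreated replicate 2 or 0.63 µM replicate 1 or 3 (medians -0.28 for the list and -0.15 for all genes at 48 h).

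Chaperones that fold the IKK kinases moved in both directions. HSP90AA1, an HSP90 gene, stood at 839, 812 and 682 TPM at 1.25 µM, against 2334, 5469 and 2030 TPM in untreated cells at 24 h, and fell by 1.93 (SE 0.281, adjusted p = 0.000419). Untreated replicate 2 lay more than 2-fold above its neighbours, and the fall held without it. At 48 h the gene stood at 635, 574 and 498 TPM at 0.63 µM, against 2131, 2088 and 1636 TPM untreated (-1.77, adjusted p = 0.00102). HSP90AB1 fell by 1.01 at 1.25 µM (adjusted p = 0.000653) and by 0.58 at 48 h (adjusted p = 0.0295, lost under median-of-ratios scaling and without any compared library but untreated replicate 3), while CDC37, the HSP90 partner that recruits kinases, rose by 0.54 at 1.25 µM (adjusted p = 0.0249, lost without untreated replicate 3 or 1.25 µM replicate 1 or 2). Of the 4 genes on this list 1 rose, 2 fell and 1 did not pass at 1.25 µM (list median -0.77), 2 fell at 48 h, and 1 fell at 0.63 µM for 24 h (HSP90AA1, adjusted p = 0.035, lost without untreated replicate 2 or any 0.63 µM replicate).

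Among other receptors of the TNF and IL-1 families 1 rose and 1 fell at 1.25 µM. TNFRSF10B, the TRAIL receptor DR5, stood at 18.3, 15.3 and 13.4 TPM at 1.25 µM, against 8.12, 5.04 and 6.02 TPM in untreated cells at 24 h, and rose by 1.18 (SE 0.227, adjusted p = 0.00329). TNFRSF21, death receptor 6, stood at 9.21, 10.8 and 6.13 TPM at 1.25 µM, against 22.3, 30.0 and 20.7 TPM untreated, and fell by 1.40 (SE 0.212, adjusted p = 0.000604). Neither gene's groups overlapped. At 48 h TNFRSF10B rose by 1.09 (adjusted p = 0.00761) and TNFRSF21 fell by 1.36 (adjusted p = 0.000889). Of the 12 receptors tested these were the pair that passed in each of these comparisons; the medians were 0.27 at 1.25 µM and 0.04 at 48 h, and 0 passed at 0.32 or 0.63 µM for 24 h. In a fit of the compared groups alone the calls at 1.25 µM of TNFRSF10B, TNFRSF21 and HSP90AB1 were lost, and that of TNFRSF10B also without untreated replicates 2 and 3 together. The compared groups alone also lost CDC37, and TOLLIP, CARD10 and NFKBIA named below, at 1.25 µM. They lost HSP90AA1, LIF and CXCL3 at 0.63 µM for 24 h, and DDX3X, MALT1 and NFKB2 at 48 h. Leaving out untreated replicates 2 and 3 together also lost the calls of CDC37, TOLLIP, CARD10 and NFKBIA at 1.25 µM. With 1 untreated library left, their differences were 0.39, 0.77, -1.03 and -0.98.

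**Figure D4:**
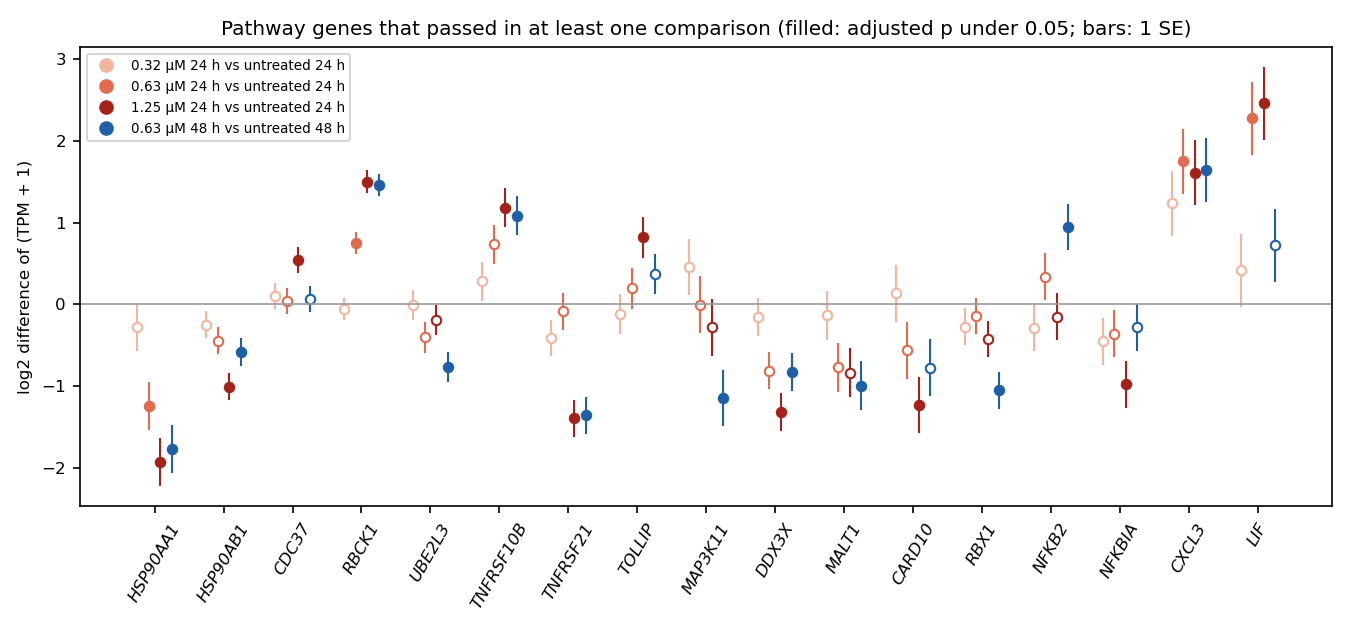
Difference in log2(TPM + 1) from untreated cells (y axis, bars of 1 SE) for the 17 named pathway genes that passed in at least 1 of the 4 comparisons, coloured by comparison; filled points passed. RBCK1 and TNFRSF10B lie above 0 and HSP90AA1 and TNFRSF21 below 0 at 1.25 µM and at 48 h.

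Among signalling intermediates few genes passed. Of 10 adaptors of IL-1 and Toll receptors TOLLIP, an inhibitory adaptor, rose by 0.82 at 1.25 µM (adjusted p = 0.0343, lost without any of the 6 libraries), and 0 passed at 48 h. Of 8 TAK1 partners and other MAP3 kinases MAP3K11 fell by 1.14 at 48 h (adjusted p = 0.046, lost without any of the 6 libraries and under median-of-ratios scaling), and 0 passed at 24 h. Of 8 MAP2, JNK and p38 kinases 0 passed in any comparison with untreated cells. At 48 h their median difference was -0.46, and that of all genes was -0.15. Among those with a group mean of at least 5 TPM the largest differences were 0.75 for MAP2K3 and -0.83 for MAP2K4, both at 0.63 µM for 24 h. At 48 h the same dose gave -0.71 for MAP2K3 and -0.59 for MAP2K4. The effect on MAP2K3 at 48 h minus that at 24 h was -1.45, which did not pass in limma (adjusted p = 0.161). Of 10 partners and sensors of TBK1 and IKKε DDX3X, an RNA helicase that binds IKKε, fell by 1.31 at 1.25 µM (adjusted p = 0.00128) and by 0.82 at 48 h (adjusted p = 0.0293, lost under median-of-ratios scaling and without untreated replicate 1 or 2 or 0.63 µM replicate 3). It had 19.9, 19.0 and 17.4 TPM at 1.25 µM, against 43.9, 56.7 and 44.7 TPM untreated, without overlap; that call was lost without untreated replicates 2 and 3 together. Of 3 genes of the CARD-BCL10-MALT1 complex CARD10, a scaffold, fell by 1.23 at 1.25 µM (adjusted p = 0.025, lost without untreated replicate 3 or 1.25 µM replicate 1 or 2), and MALT1, its paracaspase, fell by 0.99 at 48 h (adjusted p = 0.0453, lost without any compared library but 0.63 µM replicate 1 and under median-of-ratios scaling). Of 6 subunits of the ligase that degrades the NF-κB inhibitors RBX1, its RING subunit, fell by 1.05 at 48 h, with 25.1, 29.3 and 31.4 TPM at 0.63 µM, against 69.0, 61.5 and 51.3 TPM untreated (adjusted p = 0.00541, kept in every alternative).

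Downstream of IKK, 11 NF-κB subunits and inhibitors were tested. NFKBIA, which encodes the inhibitor IκBα and is itself an NF-κB target, fell by 0.98 at 1.25 µM, with 11.4, 11.2 and 12.2 TPM, against 23.8, 30.9 and 18.3 TPM untreated (adjusted p = 0.0299, lost without any compared library but untreated replicate 3 and under quantile normalization). NFKB2, the precursor processed through NIK and IKKα, rose by 0.95 at 48 h (adjusted p = 0.0425, lost without any compared library but untreated replicate 2). It stood at 6.81, 4.90 and 5.59 TPM at 0.63 µM, against 2.07, 3.91 and 1.80 TPM untreated. Of 19 tested NF-κB target genes, 0 passed at 0.32 µM, 2 rose at 0.63 µM for 24 h, 4 rose and 3 fell at 1.25 µM, and 3 rose at 48 h. Of the 4, BCL2A1 reached 1 TPM in the 1.25 µM libraries alone and so was tested only through the group where it was high. Among all genes 2.18%, 11.3% and 7.63% passed in the last 3 comparisons. The list had medians of 0.34, 0.27 and 0.33 there, and all genes 0.00, -0.01 and -0.15. NFKBIA and NFKB2 are on both this list and that of subunits and inhibitors, so they are counted in each. LIF, a cytokine of the IL-6 family, rose by 2.46 at 1.25 µM (adjusted p = 0.00182) and CXCL3, a neutrophil chemokine, by 1.61 (adjusted p = 0.0128). The call of LIF was lost without untreated replicates 2 and 3 together (adjusted p = 0.0549), and its size ran from 1.19 to 3.81 over the alternatives. That of CXCL3 was lost in the same setting (adjusted p = 0.324), without 1.25 µM replicate 1 and in a fit of the compared groups alone. LIF had 6.75, 10.3 and 6.83 TPM at 1.25 µM, against 0.79, 0.06 and 1.17 TPM untreated, and CXCL3 had 7.97, 3.51 and 3.33 TPM, against 1.69, 0.71 and 0.34 TPM. At 0.63 µM for 24 h LIF rose by 2.28 (adjusted p = 0.0155, lost without untreated replicate 2 or 0.63 µM replicate 3) and CXCL3 by 1.75 (adjusted p = 0.0306, lost without any compared library but untreated replicate 1). The call of LIF at this dose was also lost with a pseudocount of 0.1 TPM, and that of CXCL3 with no filter and with library weights. Both were lost without untreated replicates 2 and 3 together. At 48 h LIF differed by 0.72 (adjusted p = 0.37), and CXCL3 rose by 1.65 (adjusted p = 0.0148, lost without untreated replicate 1 or 3 or 0.63 µM replicate 3). Of 9 genes induced through IRF3, 2 were tested and 0 passed, IFIT3 (-1.09, adjusted p = 0.0534) and ISG15 (-0.26, adjusted p = 0.807) at 1.25 µM.

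Of the 10 tested deubiquitinases and other brakes on the pathway, 1 rose at 1.25 µM and 0 passed in the other comparisons. The gene that rose, TNFAIP3, is also counted among the NF-κB target genes. OTULIN, which removes linear chains, had 4.55, 2.67 and 8.59 TPM at 1.25 µM, against 6.41, 17.3 and 11.9 TPM untreated, and 7.64, 3.52 and 2.53 TPM at 0.63 µM for 48 h, against 9.98, 13.0 and 11.0 TPM untreated; neither difference passed (adjusted p = 0.138 and 0.101). The ubiquitin ligase ITCH differed by -0.84 at 0.32 µM (adjusted p = 0.799).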

How the data were processed

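The authors deposited TPM per Ensembl gene, 1 column per library; column sums ran from 999999.1 to 1000000.5. Per the labels' protocols, libraries were made with a QuantSeq 3' kit (FWD). The tools named, per the submitters' processing notes, are STAR 2.7, RSEM 1.3.1, cutadapt 1.18 and DESeq2, without roles. The genome build is not given in the sources used here. TPM holds no counts, so no count test was made. Symbols matched 41209 of 60504 identifiers; coordinates are from GENCODE release 29 (GRCh38), matched by identifier. The 14936 genes that reached 1 TPM in 3 or more of the 18 libraries were fitted as log2(TPM + 1) with limma 3.58.1 in R 4.3.3, 1 mean per group, trended empirical Bayes moderation, 12 residual degrees of freedom. The members, lists and tests were chosen with earlier results of these data known. Of each list, up to 4 members that passed were named, by largest change, with a group mean of at least 5 TPM; where none passed, 2. On simulated data the fit recovered 25% of genes changed by 1 and 81% changed by 2 (log2) at 1.25 µM, among 14936 genes. The simulated comparison gave 109 calls, where the data gave 1688, so a gene needed a smaller p to pass there. Its recovery is therefore not that of the data.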

Additional observations from a re-analysis of the deposited data

How the results depend on the processing

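Alternatives changed the pseudocount (0.1 and 5 TPM), the filter (none, 5 TPM), the scaling (median-of-ratios, quantile), the moderation (untrended, robust), the samples (compared groups alone, each library left out), the replicate block and the library weights. Leaving out untreated 24 h replicates 2 and 3 together was chosen after seeing the data. At 1.25 µM for 24 h 1 member passed, 0 with only the compared groups, 0 without those 2 libraries, and 0 to 1 with single libraries left out. At 48 h 0 passed, 1 with only the compared groups and 0 to 1 with single libraries left out, and for 1.25 against 0.63 µM 0 to 1 did. Same-numbered libraries of different groups correlated at -0.09 to 0.12 in their deviations from group means (median 0.03). Libraries with different numbers correlated at -0.11 to 0.11 (median -0.02). Same-numbered libraries were thus slightly more alike in the median, with ranges that overlap, and whether the numbers pair them was not tested. With the replicate block 1 member passed at 1.25 µM and 0 in the other comparisons, and the call of NFKB2 at 48 h was lost. Of 40 differences of members from untreated cells 39 did not pass, and 37 of these passed in no alternative. Of 28 calls of named pathway genes 7 held in every alternative. The settings named above beside a lost call are not always all of those that lost it. The cause of these changes was not tested. The minimum of 5 TPM removed IKBKE, MAP3K14 and TRAF2. At 48 h scaling moved the share of higher calls among all genes, 25.5% in TPM and 49.3% under median-of-ratios scaling. Depth is unknown, and the recovery on simulated data, which had fewer calls, does not carry over to these comparisons. An uncalled member may still have changed.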

Other observations

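Further NF-κB target genes passed but had means under 5 TPM or smaller changes than the genes named above. They were chosen here with their values in view. Their calls were not put through the alternatives, so whether these hold in other settings was not tested. TNFAIP3, which encodes the deubiquitinase A20, had 2.72, 1.89 and 3.22 TPM at 1.25 µM, against 0.90, 0.38 and 0.62 TPM in untreated cells at 24 h, and rose by 1.14 (limma, adjusted p = 0.0256). BCL2A1, an inhibitor of apoptosis, had 4.18, 1.18 and 4.19 TPM at 1.25 µM and was listed at 0 in all 3 untreated libraries of that time. The other 15 libraries were at most 0.84 TPM, so it met the filter on low values only through the group where it was high, and its p is not given. The chemokine CXCL1 had 21.4, 18.6 and 13.3 TPM at 1.25 µM, against 34.1, 36.3 and 31.0 TPM untreated, and fell by 0.91 (adjusted p = 0.0115). CCL2 was listed at 0 in all 3 libraries at 1.25 µM, against 1.27, 3.21 and 0.80 TPM untreated (adjusted p = 0.0257). CXCL2 had 2.85, 4.84 and 1.93 TPM at 0.63 µM for 48 h, against 0.44, 0 and 0 TPM untreated (adjusted p = 0.00708).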
